A study of Mus musculus with 4 samples.

Results

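Gas5 and 6 small nucleolar RNA host genes (Snhg1, Snhg3, Snhg4, Snhg6, Snhg8 and Snhg12) were followed by name through the gene counts of all 4 libraries. Of these 7 genes, 6 had a row among the 41342 named genes of the count table. For Snhg8, only the promoter sequence and the small nucleolar RNA Snora24 of its locus are described. Total RNA of splenic B cells was sequenced after removal of ribosomal RNA, and 2 genotypes on the 129 background contributed 1 resting and 1 LPS-activated library each. In ΔleftPAL mice the stretch from hs3a to hs1,2, with the IRIS sequence between these enhancers of the 3' regulatory region, was deleted. In ΔIRIS mice IRIS alone was deleted, and both enhancers were kept with hs3a inverted. Both genotypes are deletion mutants, and wt libraries were not analysed here. B cells were obtained by depletion of CD43-positive splenocytes from males of 8 to 12 weeks, and the LPS-activated cells had then been cultured for 48 h with LPS at 5 µg/ml. Resting cells were freshly isolated, so that culture and LPS cannot be told apart. The labels describe a pool over 4 animals per genotype, whereas the study's methods give 4 mice in 2 pooled RNAs. A figure legend of the study gives a further, different number of mice per genotype. The number of mice behind a library is therefore uncertain, and no spread between mice can be read.

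A snoRNA host gene is transcribed for the small nucleolar RNAs in its introns. Splicing frees the introns, which are trimmed to snoRNAs that guide methylation (C/D box class) or pseudouridylation (H/ACA class) of ribosomal RNA, or help its cleavage. The spliced exons of many hosts carry a short open reading frame and are removed by nonsense-mediated decay. Many hosts start at a 5' terminal oligopyrimidine (TOP) stretch, as ribosomal protein genes do, and Gas5 was named for its accumulation in growth-arrested cells.

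The counts over named genes summed to 23615496 at rest and 27777790 after LPS in ΔleftPAL cells, while ΔIRIS cells gave 28707002 and 29776108 counts in that order. At these depths 3 counts, the smallest number used in a ratio, were worth 0.102 to 0.123 CPM (counts scaled to a common library size by TMM). The lowest count of any of the 6 genes was 121. With 1 library per group, a ratio between a pair of libraries is given with a 95% exact Clopper-Pearson interval, which covers counting error only, and without a p-value. A test was possible only for the additive fit of genotype and condition over the 4 libraries by edgeR's quasi-likelihood method. This fit has 1 residual degree of freedom and takes the genotypes as the replicates of the LPS response. Its p-values were adjusted over all 11286 genes whose counts averaged 50 or more.

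The libraries also differed in marker RNA of cells other than B cells. The 5 B cell markers (Cd79a, Cd79b, Ms4a1, Pax5 and Cd22) summed to 3162 and 2642 CPM in resting ΔleftPAL and ΔIRIS cells and to 1863 and 2024 CPM after LPS. The 5 erythroid markers, most of them globins, summed to 40705 and 28143 CPM at rest and to 57.6 and 122 CPM after LPS. The 5 myeloid markers went from 288 and 385 CPM to 6.79 and 16.0 CPM, the 5 T cell markers from 19.3 and 25.2 CPM to 0.111 and 0.0341 CPM, and the 3 NK cell markers from 3.15 and 1.24 CPM to 0.148 and 0.0682 CPM. The 4 plasma cell markers were at 267 and 244 CPM at rest and at 985 and 600 CPM after LPS. No marker was at 0 in every library. With LPS the plasma cell sum was higher and the other sums lower, and their part in the results below was not tested. In bulk RNA, fewer cells of a type and less RNA per cell cannot be told apart.

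The host genes rose with LPS, with the exception of Snhg12. In ΔleftPAL cells, 3 of the 6 were at least 2-fold higher after LPS (21.3% of all genes tested were) and 0 were at least 2-fold lower (16.5% of all genes were). Snhg6 was just over this limit, and 2 of the 6 were past it with total counts as library sizes, with DESeq2 size factors or with 0.5 CPM added. In ΔIRIS cells the same counts were 3 of 6 higher (22.8% of all genes) and 0 lower (18.2% of all genes). Their median log2 ratio was 0.95 in ΔleftPAL and 0.98 in ΔIRIS cells, beside 0.12 and 0.13 over all genes tested. In the edgeR fit, 5 of the 6 passed an adjusted p of 0.05 as higher (36.4% of all genes did) and 0 as lower (27.9% of all genes did). At an unadjusted p under 0.05, 6 of the 6 differed (68.4% of all genes did), and a DESeq2 Wald test called 6 of the 6 at an adjusted p of 0.05 (56.2% of all genes), Snhg12 in the downward direction.

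**Figure D1:**
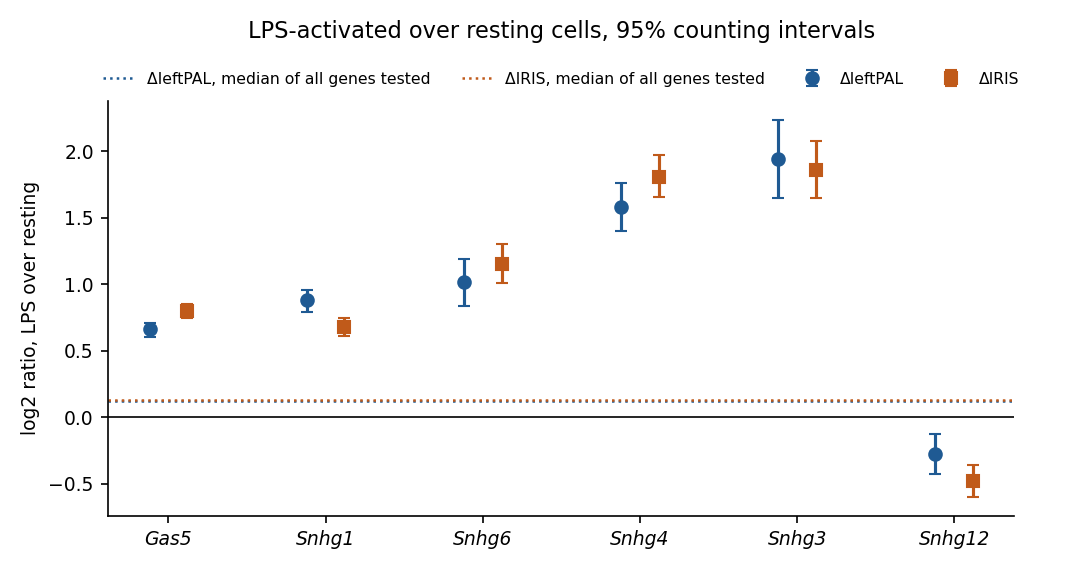
Log2 ratio of LPS-activated over resting cells for each host gene in ΔleftPAL (circles) and ΔIRIS cells (squares), with 95% exact intervals for counting error and 1 library behind each group. Dotted lines mark the median over all genes tested. Values run from 1.94 for Snhg3 in ΔleftPAL cells to -0.48 for Snhg12 in ΔIRIS cells, and only Snhg12 lies under 0.

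Gas5 and Snhg1 host snoRNAs of the C/D class in several introns each. Gas5 (chr1:161034422-161038539 in mm10, plus strand) had 4187 counts at rest and 7274 after LPS in ΔleftPAL cells, and 5512 and 9666 in ΔIRIS cells. These are 171, 270, 190 and 330 CPM in the same order. Both LPS libraries were above both resting libraries. The log2 ratio was 0.66 (interval 0.60 to 0.71) in ΔleftPAL and 0.80 (0.75 to 0.85) in ΔIRIS cells, or 1.58-fold and 1.74-fold, and the edgeR coefficient was 0.73 ± 0.12 (SE, adjusted p = 0.00419). A larger coefficient was found for 29.5% of all genes tested.

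Snhg1 (chr19:8723496-8726442, plus strand), long known as the U22 host gene, had 1670 counts at rest and 3388 after LPS in ΔleftPAL cells and 2658 and 4297 in ΔIRIS cells, which are 68.4, 126, 91.4 and 147 CPM. The LPS libraries were again both above the resting ones. Its log2 ratio was 0.88 (0.79 to 0.96) in ΔleftPAL and 0.68 (0.61 to 0.75) in ΔIRIS cells, and the edgeR coefficient was 0.78 ± 0.13 (adjusted p = 0.00419). Snhg6 (chr1:9941959-9944118, minus strand), the host of the C/D snoRNA Snord87, had 398, 888, 572 and 1284 counts at rest and after LPS in ΔleftPAL and then in ΔIRIS cells, or 16.3, 33.0, 19.7 and 43.8 CPM. It was 2.02-fold higher after LPS in ΔleftPAL and 2.23-fold higher in ΔIRIS cells, and rose in the edgeR fit by 1.09 ± 0.14 (adjusted p = 0.00153).

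Snhg3 and Snhg4 host H/ACA snoRNAs and had the largest ratios of the set. Snhg3 (chr4:132348014-132353686, minus strand), whose introns hold the U17 snoRNAs Snora73a and Snora73b, had 121 counts at rest and 512 after LPS in ΔleftPAL cells, and 221 and 810 in ΔIRIS cells. Its levels were 4.95, 19.0, 7.60 and 27.6 CPM. Both LPS libraries were above both resting libraries. The log2 ratios were 1.94 (1.65 to 2.24) and 1.86 (1.65 to 2.08) in ΔleftPAL and ΔIRIS cells, or 3.84-fold and 3.64-fold, with an edgeR coefficient of 1.90 ± 0.17 (adjusted p = 5.19e-04) that 6.73% of all genes exceeded. Snhg4 (chr18:35553371-35558316, plus strand), the host of Snora74a, had 341, 1122, 427 and 1511 counts in the same order of libraries, or 14.0, 41.6, 14.7 and 51.6 CPM. Its log2 ratios were 1.58 (1.40 to 1.76) and 1.81 (1.66 to 1.97), and the edgeR coefficient was 1.69 ± 0.14 (adjusted p = 4.77e-04).

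Snhg12 (chr4:132308678-132311024, plus strand) holds the H/ACA snoRNAs Snora16a, Snora44 and Snora61 and the C/D snoRNA Snord99, and was the exception. It had 805 counts at rest and 731 after LPS in ΔleftPAL cells, and 1344 and 974 in ΔIRIS cells, or 33.0, 27.1, 46.2 and 33.2 CPM. The resting ΔleftPAL library and the LPS-activated ΔIRIS library were nearly level, so the conditions overlapped, although LPS was lower within each genotype. The log2 ratios were -0.28 (interval -0.43 to -0.13) and -0.48 (-0.60 to -0.36), that is 1.21-fold and 1.39-fold lower. The edgeR coefficient of -0.38 ± 0.13 missed the threshold (adjusted p = 0.0519, unadjusted p = 0.0335), whereas a DESeq2 Wald test on the same design gave -0.52 with an adjusted p of 0.0396. Snhg12 and Snhg3 lie near each other on chromosome 4, on opposite strands.

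Levels are compared between genes per kilobase of the exons counted. Gas5 was highest and Snhg1 was next in each of the 4 libraries, at 45.6 to 87.7 and 23.2 to 49.7 CPM per kilobase, and Snhg4 was lowest in each at 2.99 to 11.0. The middle of the order changed with condition. Snhg12 stood 3rd in both resting libraries, at 20.3 and 28.4 CPM per kilobase in ΔleftPAL and ΔIRIS cells, followed by Snhg6 at 14.2 and 17.2 and Snhg3 at 5.02 and 7.71. After LPS, Snhg6 stood 3rd at 28.8 and 38.2, Snhg3 followed at 19.3 and 28.0, and Snhg12 was 5th at 16.7 and 20.4 CPM per kilobase. With 1 library per group there is no spread to separate neighbours in this order. Fragments that a gene shares with another gene on its strand were not counted. Snhg3 overlaps Rcc1 and Snhg4 overlaps RP23-461O23.5 on the same strand. Counted exons also overlapped snoRNA rows, 9 in Gas5, 8 in Snhg1, 3 in Snhg12 and 1 each in Snhg3 and Snhg4. The levels of all these host genes may therefore be underestimated. In all, the 6 genes took 308 and 369 CPM at rest in ΔleftPAL and ΔIRIS cells and 517 and 633 CPM after LPS, with 51.4% to 55.7% of these from Gas5.

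**Figure D2:**
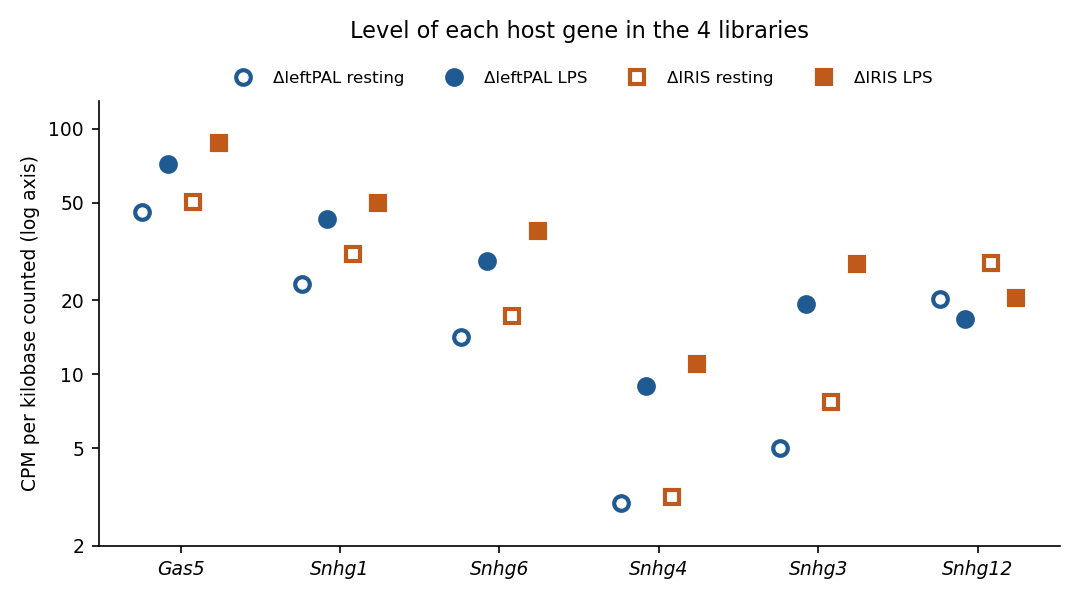
Level of each host gene in CPM per kilobase of counted exon (log axis) in the 4 libraries, with circles for ΔleftPAL and squares for ΔIRIS cells, open at rest and filled after LPS. Gas5 is highest at 45.6 to 87.7, Snhg4 lowest at 2.99 to 11.0, and Snhg12 is the gene whose filled symbols lie under the open ones.

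The gene models behind these counts differed, and the order per kilobase depends on them. Snhg4, with 4666 bases counted, was lower per kilobase than Snhg3, with 986. Before division by length Snhg4 was the higher, at 14.0 CPM beside 4.95 in resting ΔleftPAL cells. The counted exons covered 100% of the Snhg1 locus, 94.3% of Snhg4, 91.3% of Gas5, 69.3% of Snhg12, 53.1% of Snhg6 and 17.4% of Snhg3. The counted exons of Gas5, Snhg1, Snhg4 and Snhg12 covered snoRNAs of their introns, so counts of these genes can include intron fragments, and spliced and unspliced RNA cannot be told apart in them.

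Between genotypes, the host genes were higher in ΔIRIS than in ΔleftPAL cells, but none passed the test. At rest the log2 ratios of ΔIRIS over ΔleftPAL were 0.15 for Gas5, 0.42 for Snhg1, 0.62 for Snhg3, 0.07 for Snhg4, 0.27 for Snhg6 and 0.49 for Snhg12, with a median of 0.35 beside 0.00 over all genes. After LPS they were 0.29, 0.22, 0.54, 0.31, 0.41 and 0.29 in that order, with a median of 0.30 beside 0.03. The interval of Snhg4 at rest (-0.14 to 0.28) held 0, so no difference was detectable there at this depth. At least 2-fold, 0 of 6 were higher and 0 lower in either condition, beside 2.41% of all genes higher and 1.36% lower at rest and 0.833% higher and 2.15% lower after LPS.

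For the genotype term of the edgeR fit, 0 of the 6 genes passed (adjusted p of 0.707 to 0.747), where 0.00886% of all genes did, a single gene. At an unadjusted p under 0.05 in this fit, Snhg3, Snhg12 and Snhg6 differed (0.0152, 0.0302 and 0.0488 in that order), which are 3 of the 6 beside 7.02% of all genes. DESeq2 also called 0 of 6 (0.337% of all genes). The LPS log2 ratio of ΔIRIS cells minus that of ΔleftPAL cells was 0.14 for Gas5, -0.20 for Snhg1, -0.08 for Snhg3, 0.23 for Snhg4, 0.14 for Snhg6 and -0.20 for Snhg12. These differences in response could not be tested, as an interaction leaves no residual degrees of freedom, and none changed a direction.

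The snoRNAs themselves were visible for few hosts. Within the 6 genes lay 25 rows that GENCODE M21 types as snoRNAs, 9 in Gas5, 8 in Snhg1, 4 in Snhg12, 2 in Snhg3 and 1 each in Snhg4 and Snhg6. Of these, 22 overlapped a counted exon of their own host, and 21 of the 25 were at 0 in all libraries. A fragment that overlaps a pair of counted genes is assigned to neither at the setting used by the authors, so these zeros say nothing of the level of the snoRNAs. The rows with counts were Snora73b, Snord87 and Snora16a, which lie clear of the host's exons, and Snora73a, which partly overlaps an exon of Snhg3. Their sequences, read from GENCODE M21 transcripts (GRCm38) on the gene's strand, are shown because the comparison of snoRNA and host rests on them. Capitals mark the ACA box, found 3 bases before the 3' end of the H/ACA snoRNAs, and the C box (NTGATGA) and D box (CTGA) of Snord87.
Snora73b (chr4:132352322-132352526, minus strand): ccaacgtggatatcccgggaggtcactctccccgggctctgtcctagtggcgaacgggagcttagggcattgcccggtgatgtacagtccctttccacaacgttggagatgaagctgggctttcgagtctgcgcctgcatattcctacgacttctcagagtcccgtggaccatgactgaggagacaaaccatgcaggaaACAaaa
Snora73a (chr4:132352775-132352979, minus strand): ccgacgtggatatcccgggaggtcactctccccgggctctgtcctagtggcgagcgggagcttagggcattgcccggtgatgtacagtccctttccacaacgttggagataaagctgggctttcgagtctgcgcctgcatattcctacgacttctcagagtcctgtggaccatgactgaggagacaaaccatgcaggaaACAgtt
Snora16a (chr4:132309465-132309600, plus strand): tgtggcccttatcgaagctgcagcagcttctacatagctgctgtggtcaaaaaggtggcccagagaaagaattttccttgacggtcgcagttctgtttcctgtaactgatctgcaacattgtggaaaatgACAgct
Snord87 (chr1:9942463-9942549, minus strand): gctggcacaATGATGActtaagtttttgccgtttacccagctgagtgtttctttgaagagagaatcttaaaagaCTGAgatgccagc

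Snora73b moved against its host. It had 12646 counts at rest and 7208 after LPS in ΔleftPAL cells, and 13651 and 11005 in ΔIRIS cells, or 518, 268, 470 and 375 CPM. Both resting libraries were above both LPS libraries. The log2 ratio of LPS over resting was -0.95 (-0.99 to -0.91) in ΔleftPAL and -0.32 (-0.36 to -0.29) in ΔIRIS cells, and in the edgeR fit it fell by 0.64 on the log2 scale (SE 0.18, adjusted p = 0.0262), where Snhg3 rose by 1.90. The difference between these coefficients, -2.54, was not tested. Snora73b lies within both Snhg3 and Rcc1, the exchange factor of the GTPase Ran, which overlaps Snhg3 on the same strand with its start 81 bases from that of Snhg3. Rcc1 had 416, 2993, 440 and 3553 counts at rest and after LPS in ΔleftPAL and then in ΔIRIS cells and rose by 2.85 ± 0.15 (adjusted p = 1.71e-04). Fragments that both genes could hold were assigned to neither, so the counts of Snhg3 rest on the parts of its exons that Rcc1 does not share.

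Snora73a had 5, 19, 9 and 39 counts in the same order of libraries. Its log2 ratios of LPS over resting were 1.78 (0.32 to 3.56) in ΔleftPAL and 2.10 (1.03 to 3.33) in ΔIRIS cells. This is the direction of Snhg3 and not that of Snora73b. The copies are equal at 198 of 205 positions (96.6%) and share 76 of 175 stretches of 31 bases, so reads may be split between them and the division of counts is uncertain. The authors counted reads with several alignments, at the primary one. Snora73a also overlaps part of an exon of Snhg3, and fragments that reach this exon were assigned to neither row. The remaining snoRNAs had few counts. Snord87 had 15, 26, 22 and 33 counts, and its log2 ratios of 0.65 (-0.32 to 1.67) and 0.57 (-0.25 to 1.42) could not be told from 0 at this depth. Snora16a had 61, 43, 83 and 72 counts and an edgeR coefficient of -0.42 ± 0.30 (adjusted p = 0.262), beside -0.38 for its host Snhg12. Snora24, which lies within the Snhg8 locus of GENCODE M21, had 228, 191, 273 and 245 counts and a coefficient of -0.28 ± 0.21 (adjusted p = 0.282).

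**Figure D3:**
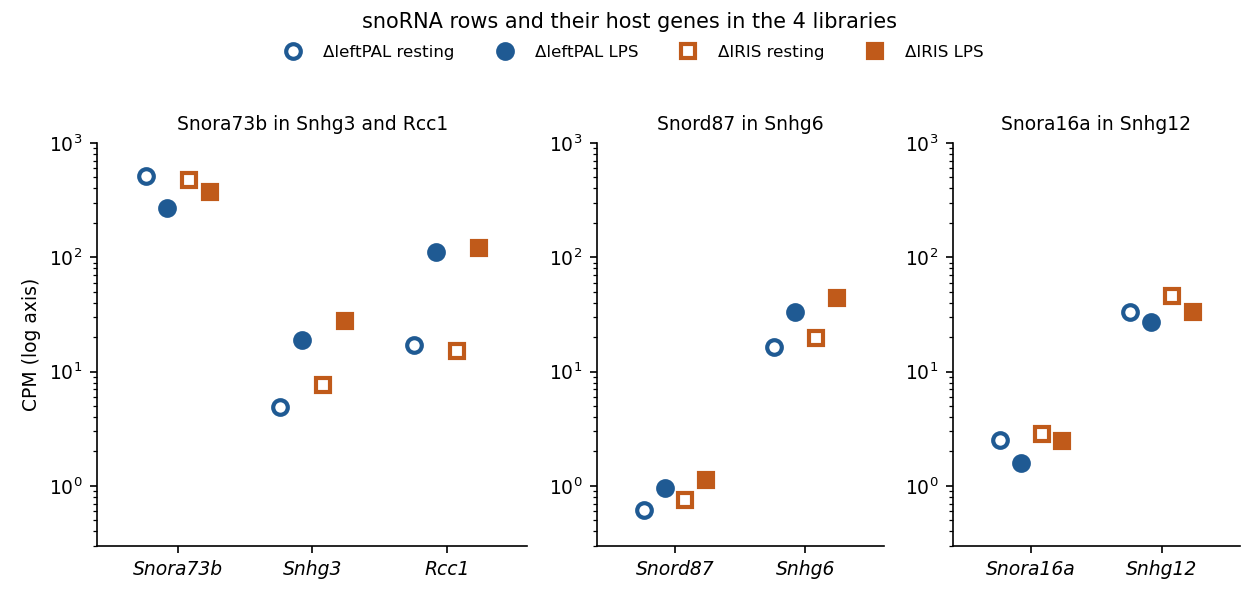
CPM (log axis) of Snora73b with Snhg3 and Rcc1, of Snord87 with Snhg6, and of Snora16a with Snhg12 in the 4 libraries, circles for ΔleftPAL and squares for ΔIRIS cells, open at rest and filled after LPS. The filled symbols of Snora73b (268 and 375 CPM) lie under the open ones (518 and 470 CPM), whereas those of Snhg3 and Rcc1 lie above.

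The snoRNA rows of the whole table give the setting of Snora73b. Of 1527 snoRNA rows in the table, 98 were tested, and 13 rose and 31 fell with LPS, with a median coefficient of -0.33. The share that fell is near the 27.9% of all genes, and the share that rose lies under their 36.4%. Snora73b ranked 2nd by count among all snoRNA rows and held 11.3% of their counts. Over 75 pairs of a tested snoRNA and a tested host on its strand, the coefficient of the snoRNA lay under that of the host in 68, with a median difference of -1.09. The host rose in 53 pairs, and in 14 of these the snoRNA fell, those of Snora73b with Snhg3 and with Rcc1 included. That share is near the 27.9% of all genes that fell. The pairs hold 74 snoRNA rows and 60 hosts, so they are not independent. The difference of Snora73b and Snhg3 was the 3rd lowest of the 75, and that of Snora73b and Rcc1 the lowest at -3.49. Short RNAs are poorly kept by libraries of this kind, and the part of this in the snoRNA values was not tested.

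Genes next to the hosts did not follow them as a group. Zbtb37, which overlaps the start of Gas5 on the opposite strand, had 592, 241, 588 and 316 counts at rest and after LPS in ΔleftPAL and then in ΔIRIS cells and fell by 1.17 on the log2 scale (SE 0.20, adjusted p = 0.00409), where Gas5 rose. Slc3a2, the heavy chain of amino acid transporters, starts 127 bases from Snhg1 on the opposite strand and had 1935, 2228, 3555 and 2476 counts. Its coefficient was -0.24 ± 0.18 (adjusted p = 0.290). In resting cells it was 0.63 higher on the log2 scale in ΔIRIS than in ΔleftPAL cells, beside 0.42 for Snhg1. After LPS the same ratio was 0.03 (-0.05 to 0.11) for Slc3a2, beside 0.22 (0.16 to 0.29) for Snhg1. Wdr74, downstream of Snhg1, rose by 1.26 ± 0.13 (adjusted p = 7.98e-04). Matr3, a nuclear matrix protein gene 3830 bases beyond Snhg4, had a coefficient of 0.06 ± 0.15 (adjusted p = 0.740), and Trnau1ap, between Snhg12 and Snhg3, one of 0.33 ± 0.16 (adjusted p = 0.122). Mcmdc2, which overlaps Snhg6 on the other strand, had 18 to 51 counts and was not tested.

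The genes whose profile over the 4 libraries lay nearest were found by the Euclidean distance of log2 CPM, centred over the libraries, among the 11286 genes tested. They were Dhx29 (0.016) and Gnl3l for Gas5, and Oxsr1 (0.054), Gm8399 and Abracl for Snhg1. Those of Snhg3 were Gm21596 (0.116), Gm5844 and Gm12346, and those of Snhg4 were Sephs1 (0.043), Psmd12 and Nup155. Those of Snhg6 were Esf1 (0.040), Ptcd3 and Gm4204, and those of Snhg12 were Cacul1 (0.022), Slk and Usp38. Within the set, Gas5 and Snhg1 were closest (0.21) and Snhg3 and Snhg12 farthest apart (2.29). With 4 points per gene, such distances describe these libraries only.

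Promoter sequence was read from RefSeq (GRCm38.p6), which held Gas5 (with 2 annotated starts), Snhg1, Snhg3, Snhg8 and Snhg12. The TOP stretch was searched as a C followed without a break by at least 5 further bases that are each C or T, beginning within 20 bases of the annotated start, on the gene's strand alone. It was present at 3 of the 6 promoters, those of 3 of the 5 genes, and at 10675 of 32851 promoters in the table (32.5%). Windows of 50 bases around the starts are shown to place Snhg12, the host that did not rise, beside the others, with the stretch in capitals.
Snhg12 (chr4:132308653-132308702, plus strand): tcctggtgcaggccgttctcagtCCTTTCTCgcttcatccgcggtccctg
Gas5, downstream start (chr1:161035141-161035190, plus strand): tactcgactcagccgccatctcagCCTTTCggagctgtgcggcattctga
Snhg8 (chr3:123508312-123508361, minus strand): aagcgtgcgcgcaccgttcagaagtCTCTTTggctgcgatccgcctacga
Snhg1 (chr19:8723462-8723511, plus strand): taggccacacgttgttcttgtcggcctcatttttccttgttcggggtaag
Snhg3 (chr4:132353662-132353711, minus strand): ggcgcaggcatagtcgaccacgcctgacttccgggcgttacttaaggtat
Snhg12 held the longest stretch, of 8 bases beginning 2 bases before the annotated start, Gas5 held 6 bases beginning 1 base before its downstream start, and Snhg8 held 6 bases at the start. The upstream start of Gas5 and the starts of Snhg1 and Snhg3, which rose with LPS, held no match in this window. A match is a description of the letters, and its absence says nothing of the start used in these cells.

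Of 16 other noncoding host genes listed by name, 9 were tested, of which 3 rose, 0 fell and 6 did not pass, with a median coefficient of 0.42 beside 0.12 over all genes. This share is near that of all genes that rose (36.4%). At an unadjusted p under 0.05, 3 were higher and 1 lower, and DESeq2 called 2 higher and 0 lower. Of all 11286 genes, 68.4% had an unadjusted p under 0.05 in either direction. DESeq2 called 3155 of them higher and 56.2% in either direction, and these values also stand beside the lists below. Snhg5 had 795 counts at rest and 2601 after LPS in ΔleftPAL cells and 1090 and 3006 in ΔIRIS cells and rose by 1.51 ± 0.12 (adjusted p = 4.47e-04). Snhg7 rose by 1.32 ± 0.18 (adjusted p = 0.00201), and Zfas1 (listed as 1500012F01Rik) by 0.42 ± 0.12 (adjusted p = 0.0294), a call that DESeq2 did not make (0.28, adjusted p = 0.203). Snhg20 (listed as 2810008D09Rik) had 246, 190, 295 and 189 counts and was, like Snhg12, lower after LPS in both genotypes without passing (-0.58 ± 0.21, adjusted p = 0.0531). Dancr had a coefficient of 0.55 ± 0.26 (adjusted p = 0.112).

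The core proteins of snoRNPs, the particles in which snoRNAs work, rose in 8 of 8 cases, with a median of 1.66, beside 36.4% of all genes and a median of 0.12. Nhp2 of the H/ACA particle went from 589 to 2757 counts in ΔleftPAL and from 638 to 3335 in ΔIRIS cells (2.23 ± 0.14, adjusted p = 2.53e-04). Dkc1, the pseudouridine synthase, rose by 2.08 ± 0.14 (adjusted p = 2.87e-04), Nop58 of the C/D particle by 1.77 ± 0.13 (adjusted p = 3.39e-04) and Gar1 by 1.73 ± 0.15 (adjusted p = 5.14e-04). Of 12 factors of snoRNP assembly and transport 11 rose, beside the same 36.4%, with a median of 1.29, and DESeq2 called 9 higher. They were led by the ATPases Ruvbl2 (2.12 ± 0.19) and Ruvbl1 (1.91 ± 0.12), the nucleolar chaperone Nolc1 (1.88 ± 0.13) and the box C/D assembly factor Znhit3 (1.41 ± 0.18). Nufip1 did not pass, at 0.27 ± 0.18 (adjusted p = 0.225).

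Genes that bear on the decay and translation of host transcripts were mixed. Of 17 genes of nonsense-mediated decay and the exon junction complex, 7 rose, 2 fell and 8 did not pass, with a median of 0.27, and DESeq2 called 5 higher and 3 lower. The share that rose is near the 36.4% of all genes, as it is for the regulators of TOP mRNAs described next. In both lists the share that fell lies under the 27.9% of all genes. The largest were subunits of the exon junction complex, Magoh at 1.40 ± 0.13 (adjusted p = 5.88e-04), Rbm8a at 1.24 ± 0.13 (adjusted p = 8.14e-04), Magohb at 1.21 ± 0.19 (adjusted p = 0.00340) and Eif4a3 at 0.86 ± 0.12 (adjusted p = 0.00244). The genes that fell were Smg1, the kinase of Upf1, with a coefficient of -0.85, and Smg6, the endonuclease of the pathway, with -0.78. Of 13 regulators of TOP mRNAs and of mTORC1, the kinase complex that controls their translation, 5 rose, 0 fell and 8 did not pass, with a median of 0.25. At an unadjusted p under 0.05, 6 were higher and 1 lower, and DESeq2 called 3 higher and 0 lower. Eif4ebp1, a translation repressor that mTORC1 phosphorylates, rose by 1.06 ± 0.20 (adjusted p = 0.00687), and Larp1, which binds the TOP stretch, by 0.97 ± 0.13 (adjusted p = 0.00177). Larp4 rose by 0.80 ± 0.12 (adjusted p = 0.00305) and Larp1b by 0.75 ± 0.18 (adjusted p = 0.0146, but 0.0697 with DESeq2).

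Gas5 RNA has been described as a decoy of the glucocorticoid receptor, and that receptor and 6 of its known targets were listed for this reason. Of these 7 genes 6 fell and 1 rose, beside 27.9% and 36.4% of all genes, with a median of -3.23 beside 0.12. Nr3c1, the receptor gene, went from 3911 to 1934 counts in ΔleftPAL and from 5900 to 1997 in ΔIRIS cells (-1.37 ± 0.16, adjusted p = 0.00110). Tsc22d3, the glucocorticoid-induced leucine zipper gene, went from 7436 to 249 counts in ΔleftPAL and from 14878 to 280 in ΔIRIS cells (-5.39 ± 0.23, adjusted p = 1.58e-04). Per1, a clock gene, had a coefficient of -3.77, Dusp1, a phosphatase of MAP kinases, of -3.71, and Sgk1, a kinase, of -3.23. Fkbp5, a chaperone partner of the receptor, was the gene that rose, by 1.17 ± 0.19 (adjusted p = 0.00386). As background, Per1, Dusp1 and Sgk1 also answer to other signals, and the B cell, myeloid and erythroid sums given above moved between the same libraries.

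**Figure D4:**
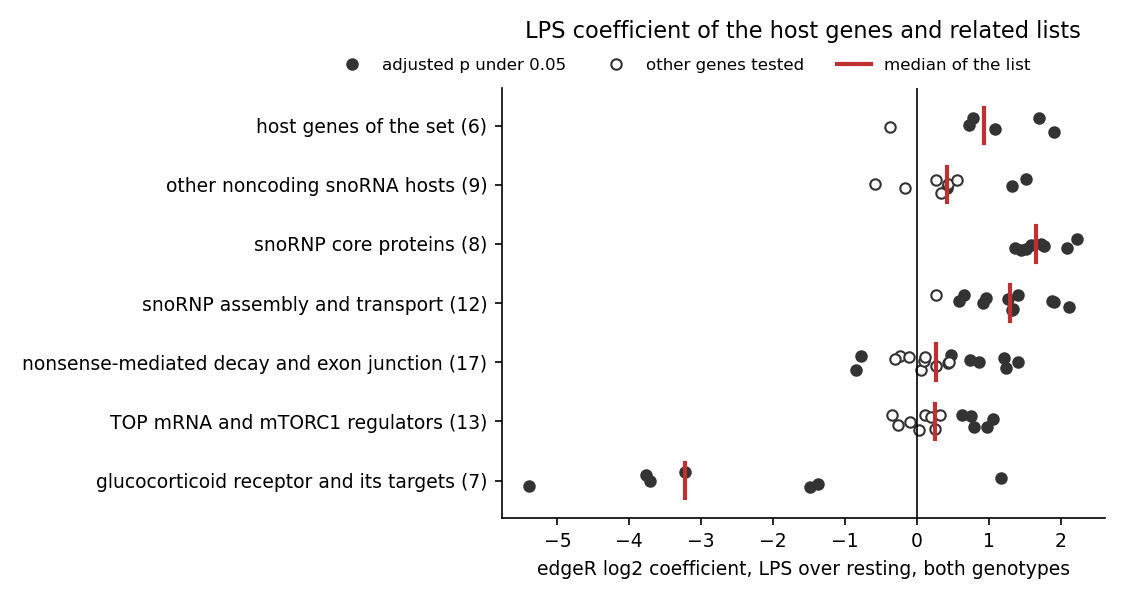
Coefficient of LPS over resting (log2, edgeR fit over both genotypes) of each gene tested, for the host genes and 6 related lists with the number tested in brackets. Filled points have an adjusted p under 0.05 and red lines mark medians, which run from 1.66 for the snoRNP core proteins to -3.23 for the glucocorticoid list.

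By position alone, 254 protein-coding genes held a snoRNA row on their strand, of which 201 were tested, with 125 higher, 36 lower and 40 not past the threshold and a median of 0.67, beside 36.4% of all genes higher, 27.9% lower and a median of 0.12. The 4 with the largest coefficients fell. Mertk, a receptor for the uptake of dying cells, had 792 counts in resting ΔleftPAL and 898 in resting ΔIRIS cells and 1 in each LPS library. Frmd4b went from 829 and 1133 counts to 3 and 4, Tbxas1 (thromboxane synthase) from 203 and 310 to 1 and 2, and Trpm2 (a cation channel) from 752 and 891 to 26 and 7. These falls came with that of the myeloid markers, and the part of such cells was not tested. A further 45 hosts outside the set were not typed as protein-coding in GENCODE M21, Cct6a, known as a chaperonin subunit gene, among them. Of these, 11 were also in the list by name, among them its 9 tested genes. Of the 45, 22 were tested, with 7 higher (Cct6a and 3 genes of the list by name included), 1 lower and 14 not past the threshold, beside 36.4% of all genes higher and 27.9% lower, a median of 0.26, and 1110038B12Rik as the largest (2.52 ± 0.13, adjusted p = 1.85e-04). For the genotype term of the edgeR fit, 0 genes of any of these lists passed. At an unadjusted p under 0.05 (7.02% of all genes) there were 3 of 13 among the TOP and mTORC1 regulators, 8 of 201 among the protein-coding hosts, a share under that of all genes, and 0 in the other lists, and DESeq2 called 2 protein-coding hosts and 0 genes of the other lists.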

How the data were processed

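Total RNA libraries of splenic B cells were sequenced as pairs of 150 nt. The authors mapped reads with STAR 2.4.0a to mm10 with the gene models of Ensembl 77. The deposited unit is the fragment count for each gene name, from featureCounts (Subread 1.4.6-p1; stranded, primary alignments, multi-mapping reads kept), without normalization. Of 41343 rows, 1 without a gene name (0.00876% to 0.0264% of counts) was left out. The deposited kallisto tables were not used, as they held no row for the genes of this set, so no transcript isoforms are given.

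Counts were scaled by TMM (edgeR 4.0.16, R 4.3.3; factors 0.970 to 1.03). Ratios set counts under 3 to 3. The edgeR quasi-likelihood test with Benjamini-Hochberg adjustment, additive for genotype and condition, ran on genes averaging 50 counts or more, and was tested on simulated data. The simulated data had few changed genes, the same dispersion for every gene and no genotype difference, a simpler setting than these data. The SE of a coefficient is its absolute value over the square root of the F statistic of this test. A sample is 1 library. The edgeR p-values rest on how far the LPS response differs between genotypes and on a spread borrowed from all genes. The borrowed spread counts for 4.35 degrees of freedom, beside 1 residual. Whether PCR copies inflated counts is unknown. The alternatives were DESeq2 1.42.0, total counts, TMM without immunoglobulin genes, 0.5 CPM added and other minimum counts. Ratios and intervals were computed in Python 3.11.15 with scipy 1.17.1. snoRNAs were typed by name or exact position in GENCODE M21.

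The genes named are the listed hosts, the nearest genes on each side and those overlapping, the 3 nearest profiles, and up to 4 genes per related list by size of the LPS coefficient. Zfas1, Nufip1, Smg1, Smg6, Fkbp5 and Nr3c1 were named after their values were seen. The hosts and lists were chosen with earlier results of these data known. Some genes that these rules or the marker lists name are not reported here.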

Additional observations from a re-analysis of the deposited data

How the results depend on the processing

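Each host gene kept the direction of its log2 ratios and coefficients under every alternative run. DESeq2 size factors lowered the median LPS ratio of all genes by 0.133 (ΔleftPAL) and 0.149 (ΔIRIS), and that of the host genes in ΔIRIS cells to 0.83 from 0.98. Snhg12 passed as lower with DESeq2 (-0.52, adjusted p = 0.0396) and with total counts as library sizes (-0.45, adjusted p = 0.0319), over a range of -0.52 to -0.38. Matr3 reversed to -0.08 with DESeq2 and -0.01 with total counts. Snhg20 passed with total counts (-0.65, adjusted p = 0.0408) or a minimum mean of 200 counts (adjusted p = 0.0445), which gave 1 lower gene among the noncoding hosts listed by name. Of the TOP and mTORC1 regulators, 3 were higher with DESeq2, and 1 was lower with total counts. Hosts found by position and not typed as protein-coding held 2 lower genes with DESeq2, with a minimum mean of 10 or of 200 counts or with all genes of at least 1 count, and 3 with total counts. These alternatives for lists and genes outside the set were added after seeing the data, and the cause of the shifts was not tested. The pyrimidine stretch was present at 14.5% of all promoters when 8 bases were required (1 of the 5 genes) and at 19.2% within 10 bases of the start (3 of the 5). Over all genes, the genotype term called 1 gene in the edgeR fit, 38 with DESeq2 and 45 with all genes of at least 1 count. Beyond the additive fit, which compares the conditions within each genotype, no pairing by replicate was possible because each group holds 1 library, and no replicate could be left out. Alternatives planned with kallisto values were not run, since those tables held no row for these genes. Depth limits Snord87 and Snora73a, with at most 39 counts per library.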
